A study of Homo sapiens with 12 samples.

Results

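The expression of 33 genes of DNA damage signalling and strand break repair was followed in melanoma cells exposed to compounds directed at telomerase. The members were the rows of the deposited count table whose symbols stand on a fixed list of repair genes, 33 of the 75249 rows kept. All 33 had enough counts to be tested, among 29114 rows tested, of which 14439 carried gene symbols and the others NONCODE identifiers of long noncoding loci. Total RNA was sequenced from A375 and LOX-IMVI BR, each a human metastatic melanoma cell line per the labels. Each line was exposed to 6-thio-dG at 5 µM, to BIBR1532 at 25 µM or to a control, with 2 biological replicates in each of the 6 groups and 12 libraries in all. 6-thio-dG is a modified deoxyguanosine that telomerase builds into telomeric DNA, and BIBR1532 is a small molecule that inhibits telomerase. The sources used here give neither the lines' genotypes, nor what BR stands for, nor the vehicle, nor how long cells were exposed. Each line is a single model, so a difference between A375 and LOX-IMVI BR is a difference between these lines.

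Cells sense broken DNA and stalled replication forks through the kinases ATM, ATR and DNA-PK, which pass the signal through mediator proteins to the checkpoint kinases CHEK1 and CHEK2. Breaks are rejoined directly by end joining, or trimmed back by resection and copied from the sister chromatid by homologous recombination, in which BRCA1, PALB2 and BRCA2 act together. The Fanconi anemia proteins repair crosslinks between the strands, and many genes of recombination and of the Fanconi anemia pathway are expressed mainly in dividing cells.

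Libraries held 11813388 to 25822381 counts, and levels are given as CPM, counts divided by library size, after scaling by the trimmed mean of M values (TMM). The replicates of LOX-IMVI BR lay close together, and those of A375 did not. The biological coefficient of variation was 4.55% in LOX-IMVI BR, 36.1% in A375 and 25.8% over all 12 libraries. The A375 6-thio-dG libraries stood furthest apart for the repair genes. Replicate 1 was below replicate 2 for 27 of 33 members, by a median of 1.81 on the log2 scale, and the summed level of the members was 909 CPM in replicate 1 and 1318 CPM in replicate 2. The A375 control libraries differed from each other for single members, such as PRKDC at 667 and 252 CPM and XRCC6 at 342 and 778 CPM. The main test used 1 spread for all 12 libraries (edgeR's quasi-likelihood test, Benjamini-Hochberg adjusted p under 0.05 over all rows tested, "called" below). That spread is smaller than the one between A375 replicates and larger than the one between LOX-IMVI BR replicates, so counts of members from the libraries of the line alone are also given for the comparisons within a line. Counts with a single library left out are given without the share of all rows called in that fit. The group then holds a lone library, so a count can move whichever library is left out. A move need not come from that library, and these counts are not results about the members.

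Of the markers of the melanocyte lineage, SOX10 averaged 0.592 CPM in LOX-IMVI BR controls and 551 CPM in A375 controls. TYR was at 0 in the controls of both lines, DCT was at 0 in those of LOX-IMVI BR, and 2 of 8 lineage markers were above 1 CPM in LOX-IMVI BR controls, against 3 of 8 in A375 controls. Most lineage markers were therefore at or under 1 CPM in both lines. LOX-IMVI BR controls also held the fibroblast collagen COL1A1 at 1630 CPM, against 3.16 CPM in A375 controls. COL1A1 averaged 15.5 CPM in the 6-thio-dG libraries of LOX-IMVI BR and 1450 CPM in its BIBR1532 libraries. Of the other fibroblast markers in LOX-IMVI BR controls, COL3A1 averaged 151 CPM. COL1A2, DCN, LUM and PDGFRB averaged 2.61, 2.76, 0.672 and 1.17 CPM there. Summed endothelial markers stayed between 1.35 and 8.25 CPM in all 12 libraries, and the leukocyte marker CD3E was at 0 in 5 of the 6 groups, while CD68 averaged 92.3 CPM in LOX-IMVI BR controls and 296 CPM in A375 controls. Summed epithelial markers were 40.5 to 43.9 CPM in LOX-IMVI BR controls and 305 to 498 CPM in A375 controls. In A375 controls KRT18, KRT8 and CLDN4 averaged 259, 127 and 14.9 CPM, and EPCAM, CDH1 and KRT19 averaged 0.139, 0.0187 and 0.339 CPM. Summed keratinocyte markers were 68.0 to 79.3 CPM in LOX-IMVI BR controls and 193 to 324 CPM in A375 controls. KRT10 averaged 238 CPM in A375 controls. KRT5, KRT14 and KRT1 averaged 3.42, 4.61 and 12.2 CPM there, and TP63 and DSG3 0.184 and 0.064 CPM.

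In LOX-IMVI BR, 6-thio-dG lowered 7 of 33 members in the 12-library fit and raised none of them. These were the kinases PRKDC and CHEK1, the recombination factor RAD54L, the helicase BRIP1, the Fanconi anemia proteins FANCD2 and FANCI, and the break sensor PARP1. The background was 7.16% of all rows called lower, or 10.8% of the symbol-named rows. In bulk RNA, fewer cells of a kind and less RNA per cell cannot be told apart. The count of 0 for higher calls went with 0 members at an unadjusted p under 0.05 on that side and 0 by DESeq2. The members' median log2 fold change was -0.59, with 30 of 33 below 0, beside 0.05 over all rows tested.

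PRKDC, the catalytic subunit of DNA-PK, had 272 and 277 CPM in 6-thio-dG libraries, against 997 and 957 CPM in control libraries. Its log2 fold change was -1.83 ± 0.512 (SE), with an adjusted p of 0.0243 by edgeR's quasi-likelihood test. CHEK1, which halts the cell cycle downstream of ATR, had 20.9 and 21.6 CPM with 6-thio-dG, against 40.3 and 41.4 CPM in controls. The libraries of the groups did not overlap for either kinase. The change of CHEK1 was -0.94 ± 0.265 on the log2 scale (edgeR adjusted p = 0.0238), and it missed the threshold after correction for transcript GC content (-0.67, adjusted p = 0.159). The other kinases did not pass the 12-library test. ATM had 185 and 178 CPM with 6-thio-dG, against 207 and 211 CPM in controls. ATR had 78.0 and 75.6 CPM, against 82.7 and 78.3 CPM, and CHEK2 had 6.90 and 5.35 CPM, against 10.1 and 9.06 CPM. The libraries did not overlap for ATM, ATR or CHEK2, as for 34.8% of all rows on the lower side. The log2 fold change of ATR was -0.07. In the libraries of LOX-IMVI BR alone ATM and CHEK2 passed and ATR did not (edgeR adjusted p = 0.00158, 0.000119 and 0.391).

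Of the 7 falls in LOX-IMVI BR, 4 were in recombination and crosslink repair. By role, these were 1 of 7 members of homologous recombination, 1 of 3 helicases and 2 of 4 members of the Fanconi anemia pathway. Elsewhere 2 of 5 kinases and 1 of 2 members of break sensing and damage tolerance were called lower. Mediators and adaptors, end resection and end joining had 0 of 4 each. Whether the falls were concentrated in any role was not tested. RAD54L, a DNA translocase of recombination, had 14.8 and 15.5 CPM in 6-thio-dG libraries, against 44.4 and 42.4 CPM in control libraries (log2 fold change -1.52 ± 0.290, edgeR adjusted p = 0.00272). BRIP1, a helicase that binds BRCA1, had 13.1 and 12.6 CPM with 6-thio-dG, against 47.0 and 45.4 CPM in controls (-1.85 ± 0.463, adjusted p = 0.0133 by edgeR). Neither gene's groups overlapped. FANCD2 and FANCI form the clamp that is ubiquitinated at crosslinks. FANCD2 had 9.30 and 10.7 CPM with 6-thio-dG, against 30.1 and 27.4 CPM in controls (-1.52 ± 0.341, edgeR adjusted p = 0.00714). FANCI had 19.8 and 20.7 CPM, against 65.9 and 67.9 CPM (-1.73 ± 0.418, adjusted p = 0.0110 by edgeR). PARP1, which binds strand breaks and marks them with ADP-ribose, had 103 and 109 CPM, against 200 and 186 CPM (-0.86 ± 0.275, edgeR adjusted p = 0.0426).

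The breast cancer susceptibility genes were not called in that comparison. BRCA1, part of a ubiquitin ligase with BARD1, had 51.0 and 54.7 CPM with 6-thio-dG, against 90.2 and 88.6 CPM in controls (log2 fold change -0.76 ± 0.513). BRCA2, which acts in recombination, had 25.5 and 23.9 CPM, against 40.4 and 42.6 CPM (-0.75 ± 0.551). Both had adjusted p-values over the threshold in the 12-library fit, at 0.36 and 0.41, and both passed in the libraries of LOX-IMVI BR alone, at 1.13e-12 and 8.67e-11 (edgeR).

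With the libraries of LOX-IMVI BR alone, 27 members were called lower and 2 higher, on backgrounds of 30.8% and 32% of rows. The 2 higher were WRN, a helicase of the RecQ family, and LIG4, the ligase of end joining. WRN had 16.6 and 17 CPM with 6-thio-dG, against 12.4 and 11.9 CPM in controls, and LIG4 had 53.2 and 54.5 CPM, against 46.8 and 41.5 CPM. The libraries of the groups did not overlap, on the lower side, for 30 of 33 members, on a background of 34.8% of rows. After GC correction 8 members were called lower, on a background of 14.6%, and WRN was called higher. In the 12-library fit the count of 7 dropped to 0 without 6-thio-dG replicate 1, to 1 without 6-thio-dG replicate 2 or without control replicate 1, and to 2 without control replicate 2.

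Proliferation markers moved with the repair genes in these libraries. Of 15 such markers, 10 were called lower with 6-thio-dG in LOX-IMVI BR, and their summed level was 903 to 978 CPM with 6-thio-dG, against 3300 to 3380 CPM in controls. All 15 stayed above 1 CPM in each group. Their part in the lower repair gene levels was not tested.

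Among 73 tested genes of the same pathways outside the list, 13 were called lower and 1 higher with 6-thio-dG in LOX-IMVI BR. CDC25B, a phosphatase that drives entry into mitosis, averaged 53.9 ± 1.00 CPM with 6-thio-dG and 241 ± 0.267 CPM in controls (SD, n = 2 each; log2 fold change -2.16 ± 0.311). H2AFX, the histone that ATM phosphorylates beside breaks, averaged 55.6 ± 0.0419 CPM and 266 ± 11.6 CPM in the same groups (-2.26 ± 0.340). CDC25C and TIMELESS were also lower, by log2 fold changes of -2.16 and -1.48. The 1 higher gene, named here after its value was seen, was RPA2, a subunit of the complex that coats exposed DNA strands, at 77.3 ± 2.58 CPM with 6-thio-dG and 37.2 ± 0.897 CPM in controls.

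**Figure D1:**
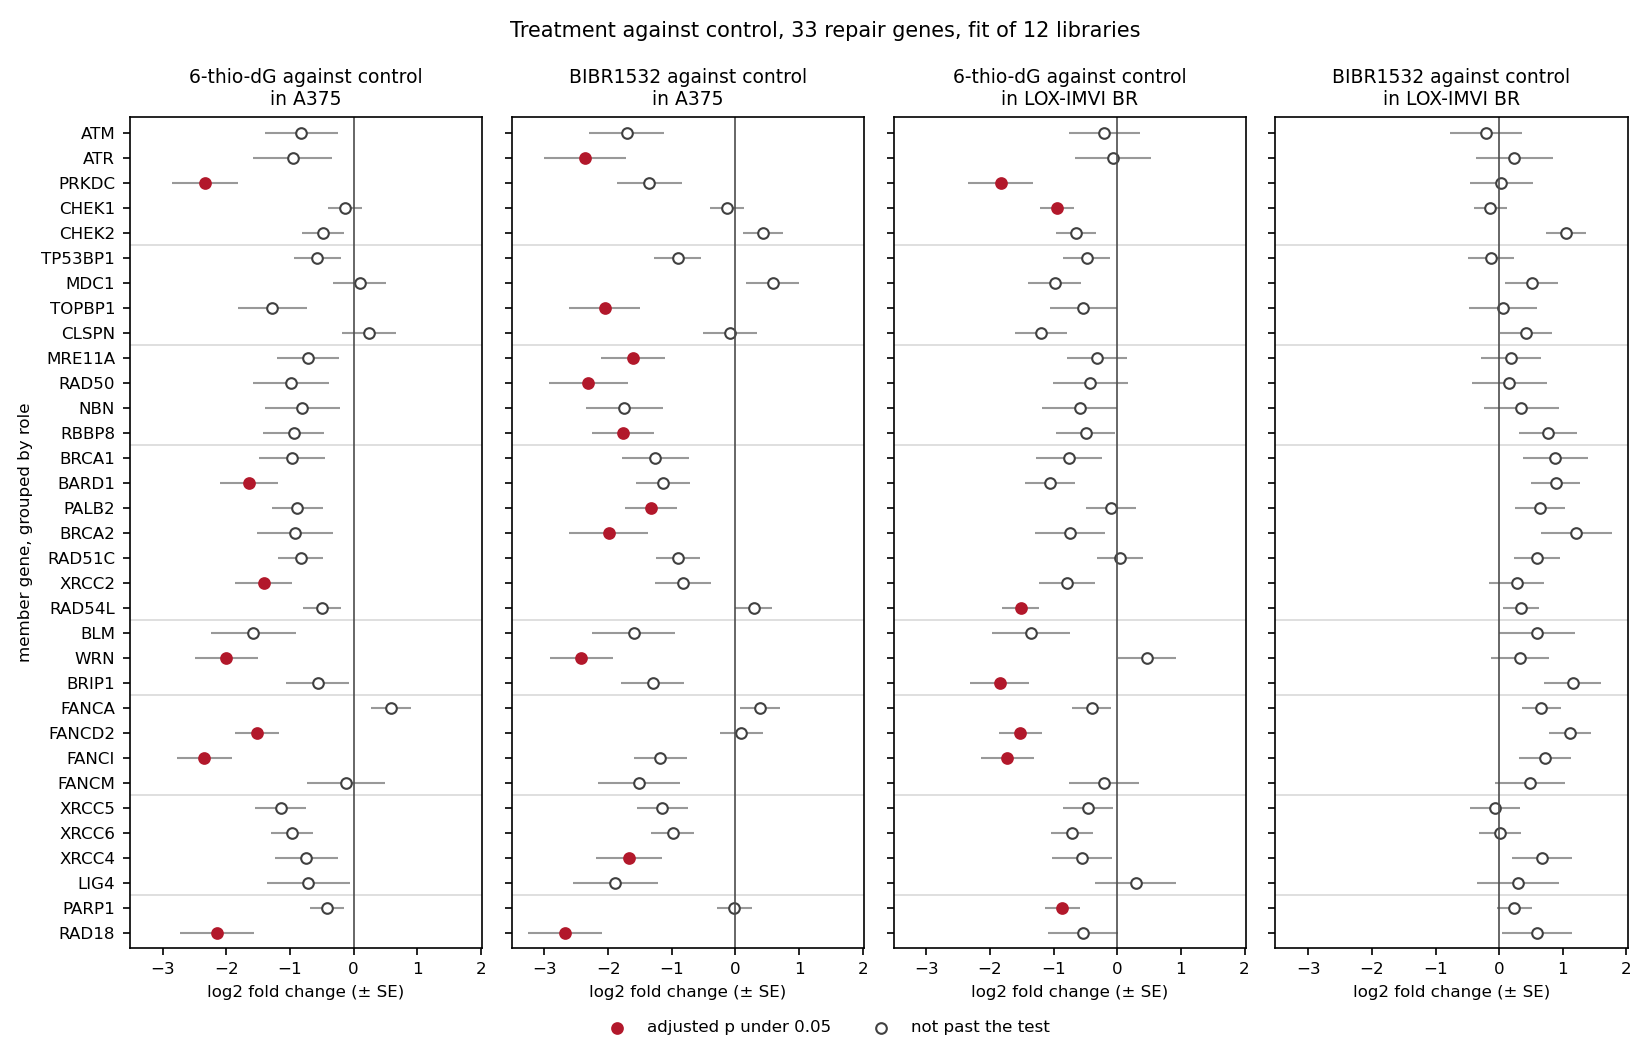
Log2 fold change of each of the 33 members, treatment against control, in each line, from the fit of 12 libraries. Points are estimates, bars are standard errors and filled points are called at an adjusted p under 0.05. Filled points number 7, 10, 7 and 0 from left to right, and all of them lie below 0.

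With BIBR1532 in LOX-IMVI BR, no member was called in either direction in the 12-library fit, where 0.69% of rows were called lower and 2.9% higher. At an unadjusted p under 0.05 there were 6 members on the higher side and 0 on the lower, and DESeq2 called 1 higher. The members' median log2 fold change was 0.43, with 29 of 33 above 0, beside 0.04 over all rows. The libraries did not overlap, on the higher side, for 26 of 33 members, on a background of 35.1% of rows.

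With the LOX-IMVI BR libraries alone, 24 members were called higher and 3 lower with BIBR1532, on backgrounds of 23.1% and 21.8%. BRCA2 had 96.1 and 96.3 CPM with BIBR1532, against 40.4 and 42.6 CPM in controls, a log2 fold change of 1.21 ± 0.554 in the 12-library fit. BRIP1 had 97.6 and 108 CPM, against 47.0 and 45.4 CPM, and FANCD2 had 59.3 and 65.1 CPM, against 30.1 and 27.4 CPM. BIBR1532 libraries lay above control libraries for all 3 genes. BRCA1 had 166 and 165 CPM with BIBR1532, against 90.2 and 88.6 CPM in controls, and CHEK2 had 20.8 and 18.7 CPM, against 10.1 and 9.06 CPM. PRKDC had 962 and 1040 CPM, against 997 and 957 CPM, and here the libraries overlapped. ATM was the member furthest below its control level, at 176 and 186 CPM, against 207 and 211 CPM. ATR had 94.7 and 95.2 CPM, against 82.7 and 78.3 CPM, CHEK1 had 36.1 and 38.2 CPM, against 40.3 and 41.4 CPM, and PARP1 had 218 and 238 CPM, against 200 and 186 CPM. After GC correction 4 members were called higher (BARD1, BRCA2, BRIP1 and FANCD2), on a background of 7.93%. The summed level of the 15 proliferation markers was 4740 to 5090 CPM with BIBR1532, against 3300 to 3380 CPM in controls, with 0 of 15 called in the 12-library fit. Their part in the repair gene levels was not tested. None of the 73 other pathway genes was called.

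Set directly against each other in LOX-IMVI BR, at doses that differ, the compounds differed for more members than either did from the control in the 12-library fit. Levels were lower with 6-thio-dG than with BIBR1532 for 15 of 33 members in the 12-library fit and higher for none, on a background of 10.7% of all rows and 14.8% of symbol-named rows called lower. No member was on the higher side at an unadjusted p under 0.05 or by DESeq2. FANCD2 had 9.30 and 10.7 CPM with 6-thio-dG, against 59.3 and 65.1 CPM with BIBR1532 (log2 fold change -2.64 ± 0.353, edgeR adjusted p = 0.000145). BRIP1 had 13.1 and 12.6 CPM, against 97.6 and 108 CPM (-3.0 ± 0.483, adjusted p = 6.0e-04 by edgeR). BRCA1 and BRCA2 were both called here, at -1.64 ± 0.522 and -1.96 ± 0.566. The remaining 11 were PRKDC, CHEK1, CHEK2, MDC1, CLSPN, BARD1, RAD54L, BLM, FANCA, FANCI and PARP1. The break rejoining factors XRCC5, XRCC6, XRCC4 and LIG4 were not called, nor were the resection factors MRE11A, RAD50, NBN and RBBP8. All 4 of each role were still below 0, with median log2 fold changes of -0.557 and -0.764, so a missing call does not mean an unchanged level. With LOX-IMVI BR libraries alone 30 members were called lower, on a background of 33%, and after GC correction 14, on a background of 17.4%. The count of 15 was 5 without 6-thio-dG replicate 1 and 6 without 6-thio-dG replicate 2, BIBR1532 replicate 1 or BIBR1532 replicate 2. Of the 73 other pathway genes, 20 were called lower and 0 higher in the same contrast. Proliferation markers were called lower for 10 of 15, with sums of 903 to 978 CPM with 6-thio-dG and 4740 to 5090 CPM with BIBR1532, and their part was not tested.

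**Figure D2:**
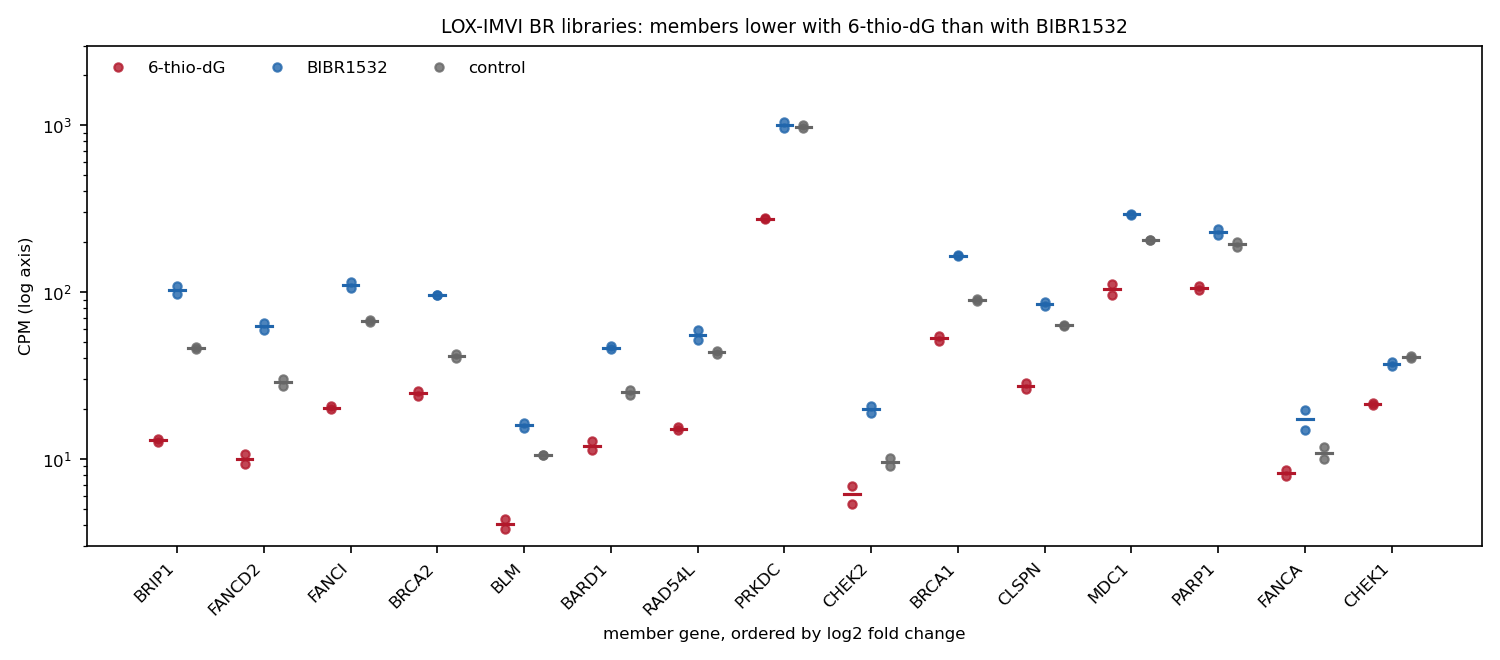
CPM of the 15 members called lower with 6-thio-dG than with BIBR1532 in LOX-IMVI BR, on a log axis. Points are single libraries and short lines are means of 2. The 6-thio-dG libraries of FANCD2 lay at 9.30 and 10.7 CPM, below those of BIBR1532 at 59.3 and 65.1 CPM and of the control at 30.1 and 27.4 CPM.

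Promoters are shown for 4 of these 15 members, BRIP1, CLSPN, BLM and FANCD2, as examples of members that moved together and had a RefSeq entry. RefSeq promoters (GRCh38.p14) were matched for 21 of the 33 members. The CCAAT box, a short element common in promoters of genes expressed in dividing cells, was searched as CCAAT on both strands in the 250 bases before the start. It was found in 11 of 21 members, 52.4%, beside 32% of 35116 promoters. Of the other called members with a promoter, CHEK2, MDC1 and FANCA held it and BARD1, BRCA2 and PARP1 did not. TP53BP1, MRE11A, PALB2, FANCM and XRCC6, outside the called set, also held it. The element TTTGAA or TTCGAA, known from promoters of cell cycle genes, was found in 2 of 21, 9.52%, beside 14.3%. The E2F words TTTGGCGC, TTTCCCGC, TTTCGCGC and TTTGCCGC were found in 1 of 21, 4.76%, beside 2.79%. A match describes the letters in this window and is not a binding site. The 120 bases just before the start follow, 5′ to 3′ on the strand of the gene, with the CCAAT box in capitals in either orientation, at chr17:61863529-61863648 on the minus strand for BRIP1, chr1:35769979-35770098 on the minus strand for CLSPN, chr15:90717226-90717345 on the plus strand for BLM and chr3:10026317-10026436 on the plus strand for FANCD2. BRIP1 and CLSPN each hold 3 boxes in this stretch, BLM holds 2 and FANCD2 holds 0.
BRIP1: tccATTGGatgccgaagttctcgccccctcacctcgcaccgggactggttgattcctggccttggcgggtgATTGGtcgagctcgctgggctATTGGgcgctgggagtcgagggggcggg
CLSPN: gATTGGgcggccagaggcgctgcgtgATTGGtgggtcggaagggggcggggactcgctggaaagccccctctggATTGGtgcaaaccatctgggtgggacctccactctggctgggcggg
BLM: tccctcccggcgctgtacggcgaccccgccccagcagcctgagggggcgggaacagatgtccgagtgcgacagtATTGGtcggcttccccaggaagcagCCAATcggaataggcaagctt
FANCD2: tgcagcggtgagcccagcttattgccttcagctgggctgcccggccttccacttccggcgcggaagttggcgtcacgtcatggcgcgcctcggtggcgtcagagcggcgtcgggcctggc

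In A375, 6-thio-dG lowered 7 of 33 members in the 12-library fit and raised none, with 0 on the higher side at an unadjusted p under 0.05 and 0 by DESeq2. These were the kinase PRKDC, the recombination factors BARD1 and XRCC2, the helicase WRN, FANCD2, FANCI and the ubiquitin ligase RAD18, which modifies PCNA at stalled forks. The background was 8.21% of all rows called lower, or 12.9% of symbol-named rows. FANCI had 5.09 and 16.5 CPM in 6-thio-dG libraries, against 62.4 and 48.1 CPM in control libraries (log2 fold change -2.35 ± 0.432, edgeR adjusted p = 0.00271). PRKDC averaged 91.1 ± 71.6 CPM, against 459 ± 294 CPM (SD, n = 2 each; -2.33 ± 0.522, adjusted p = 0.00878 by edgeR). FANCD2 had 6.76 and 8.06 CPM, against 28.6 and 13.8 CPM (-1.52 ± 0.349, edgeR adjusted p = 0.00937). The groups did not overlap for any of the 7, and the replicates within a group differed by more than in LOX-IMVI BR.

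WRN had 0.919 and 5.04 CPM in A375 with 6-thio-dG, against 12.7 and 11.7 CPM in controls (log2 fold change -2.0 ± 0.494, edgeR adjusted p = 0.0134). RAD18 had 1.75 and 12.6 CPM, against 25.9 and 38.6 CPM (-2.15 ± 0.577, adjusted p = 0.0211 by edgeR). BARD1 had 0.668 and 2.55 CPM, against 6.13 and 4.07 CPM (-1.64 ± 0.453, edgeR adjusted p = 0.0225). XRCC2, a recombination factor, had 3.59 and 12.3 CPM, against 27.9 and 14.5 CPM (-1.41 ± 0.453, adjusted p = 0.0434 by edgeR). In each of these, 6-thio-dG replicate 1 was the lowest library.

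The followed genes outside the called set showed how far the 6-thio-dG replicates of A375 lay apart. ATM had 5.18 and 40 CPM with 6-thio-dG, against 42.4 and 37.7 CPM in controls, and ATR had 2.76 and 27.1 CPM, against 26.7 and 31.5 CPM. BRCA1 had 4.76 and 28.6 CPM, against 34.0 and 31.4 CPM, and BRCA2 had 0.752 and 6.58 CPM, against 4.97 and 9.42 CPM. For ATM, ATR and BRCA2 replicate 2 lay within the range of the controls, and replicate 1 lay below it. CHEK1 had 10.5 and 10.2 CPM with 6-thio-dG, against 11.1 and 11.7 CPM in controls, and PARP1 had 286 and 239 CPM, against 287 and 415 CPM. CHEK2 had 5.76 and 5.78 CPM, against 5.91 and 10.4 CPM.

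The A375 6-thio-dG count depended on the library and on the spread used. Without 6-thio-dG replicate 2 more members were called, and without 6-thio-dG replicate 1 or either control library fewer were. The share of all rows called in those fits is not given, so whether the shift is particular to the members cannot be told. With the A375 libraries alone FANCI was the only member called, on a background of 2.02% of rows called lower. The libraries did not overlap, on the lower side, for 18 of 33 members, on a background of 20.5%. After GC correction 9 members were called lower, on a background of 17.1%.

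Of 15 proliferation markers 8 were called lower with 6-thio-dG in A375, with sums of 691 to 798 CPM against 1020 to 1360 CPM in controls, and their part in the repair gene levels was not tested. Of the 73 other pathway genes 11 were called lower and 2 higher. LIG3, a ligase that acts with XRCC1, averaged 41.3 ± 8.76 CPM with 6-thio-dG and 113 ± 22.9 CPM in controls (SD, n = 2 each), and XRCC1 averaged 19.6 ± 7.01 CPM and 55.6 ± 24.3 CPM in the same groups. FANCC and RMI2 were lower by log2 fold changes of -1.24 and -1.18. The 2 higher genes, named after their values were seen, were POLH, a polymerase that copies past damaged bases, and NHEJ1, a factor of end joining.

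BIBR1532 lowered 10 of 33 members in A375, on a background of 7.29% of all rows and 10.3% of symbol-named rows called lower. None was called higher, at an unadjusted p under 0.05 or by DESeq2 either. The 10 were ATR, TOPBP1, the resection factors MRE11A, RAD50 and RBBP8, the recombination factors PALB2 and BRCA2, WRN, XRCC4 and RAD18. RAD18 had 3.99 and 6.06 CPM with BIBR1532, against 25.9 and 38.6 CPM in controls (log2 fold change -2.68 ± 0.586, edgeR adjusted p = 0.00935). WRN had 1.79 and 2.76 CPM, against 12.7 and 11.7 CPM (-2.42 ± 0.496, adjusted p = 0.00582 by edgeR). ATR had 4.53 and 6.74 CPM, against 26.7 and 31.5 CPM (-2.37 ± 0.648, edgeR adjusted p = 0.0264). The groups did not overlap for any of the 10.

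RAD50, which holds DNA ends together with MRE11A and NBN, had 9.60 and 11.1 CPM in A375 with BIBR1532, against 40.2 and 62.7 CPM in controls (log2 fold change -2.31 ± 0.621). RBBP8, which starts resection with that complex, had 5.11 and 5.96 CPM, against 14.2 and 23.6 CPM (-1.76 ± 0.484). TOPBP1, an activator of ATR, had 10.3 and 16.7 CPM, against 55.5 and 56.7 CPM (-2.05 ± 0.558). All 3 lay below the controls in both libraries. PALB2, which joins BRCA1 to BRCA2, had 8.07 and 9.89 CPM, against 25.1 and 19.8 CPM (-1.33 ± 0.406), and XRCC4, the partner of LIG4, had 2.69 and 2.18 CPM, against 4.15 and 11.8 CPM (-1.67 ± 0.512). BRCA2 had 1.48 and 2.08 CPM, against 4.97 and 9.42 CPM (-1.99 ± 0.618), and MRE11A, the nuclease of the complex, changed by -1.61 ± 0.502.

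Of the followed genes not called with BIBR1532 in A375, ATM had 10.2 and 14.3 CPM with BIBR1532, against 42.4 and 37.7 CPM in controls (log2 fold change -1.71 ± 0.587, edgeR adjusted p = 0.0611). PRKDC had 140 and 221 CPM, against 667 and 252 CPM, and BRCA1 had 12.3 and 15 CPM, against 34.0 and 31.4 CPM. Both lay below their controls without overlap. CHEK1 had 10.6 and 10.2 CPM with BIBR1532, against 11.1 and 11.7 CPM in controls, CHEK2 had 11 and 10.9 CPM, against 5.91 and 10.4 CPM, and PARP1 had 353 and 339 CPM, against 287 and 415 CPM.

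With the A375 libraries alone 0 members were called with BIBR1532, on a background of 0.558% of rows called lower. In the 12-library fit the count was 0 without BIBR1532 replicate 1 or replicate 2, 5 lower and 1 higher without control replicate 1, and 1 without control replicate 2. The libraries did not overlap, on the lower side, for 26 of 33 members, on a background of 27.3%, and after GC correction 11 members were called lower, on a background of 13.4%. The sum of the proliferation markers was 1080 to 1090 CPM with BIBR1532 and 1020 to 1360 CPM in controls, with 1 of 15 called lower and 1 higher. Of the 73 other pathway genes 6 were called lower, among them POLK, RIF1, POLQ and DNA2, with log2 fold changes of -2.83, -2.84, -2.09 and -1.15. POLK and POLQ are polymerases that copy damaged DNA or rejoin ends, RIF1 acts with TP53BP1 and DNA2 is a resection nuclease. The 1 called higher was POLH (1.04 ± 0.326), named after its value was seen.

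Set directly against each other in A375, again at differing doses, 6-thio-dG and BIBR1532 differed for 1 of 33 members, on a background of 8.76% of rows called lower. FANCD2 had 6.76 and 8.06 CPM with 6-thio-dG, against 20.9 and 24.5 CPM with BIBR1532 (log2 fold change -1.61 ± 0.349, edgeR adjusted p = 0.00603). With A375 libraries alone no member was called, on a background of 4.1%. The direction of the called members turned with the 6-thio-dG library left out. It was mostly higher without replicate 1 and lower without replicate 2. No other single library moved the count of 1. Of the 73 other pathway genes 9 were called lower and 3 higher.

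Members called in no comparison of a compound with the control in the 12-library fit were ATM, CHEK2, TP53BP1, MDC1, CLSPN, NBN, BRCA1, RAD51C, BLM, FANCA, FANCM, XRCC5, XRCC6 and LIG4. XRCC5 and XRCC6 form the Ku ring that binds broken ends. XRCC6 had 191 and 198 CPM with 6-thio-dG, 312 and 330 CPM with BIBR1532 and 320 and 318 CPM in controls of LOX-IMVI BR, and 304 and 268 CPM, 286 and 279 CPM and 342 and 778 CPM in the same order in A375. The 6-thio-dG libraries of LOX-IMVI BR lay below the others. TP53BP1, which favours end joining over resection, had 70.8 and 73.9 CPM with 6-thio-dG, 91.6 and 93.7 CPM with BIBR1532 and 105 and 96.8 CPM in controls of LOX-IMVI BR. NBN had 72.0 and 70.9 CPM, 140 and 135 CPM and 107 and 108 CPM in the same groups. For both, 6-thio-dG libraries were the lowest, while BIBR1532 libraries lay above the controls for NBN and below them for TP53BP1.

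**Figure D3:**
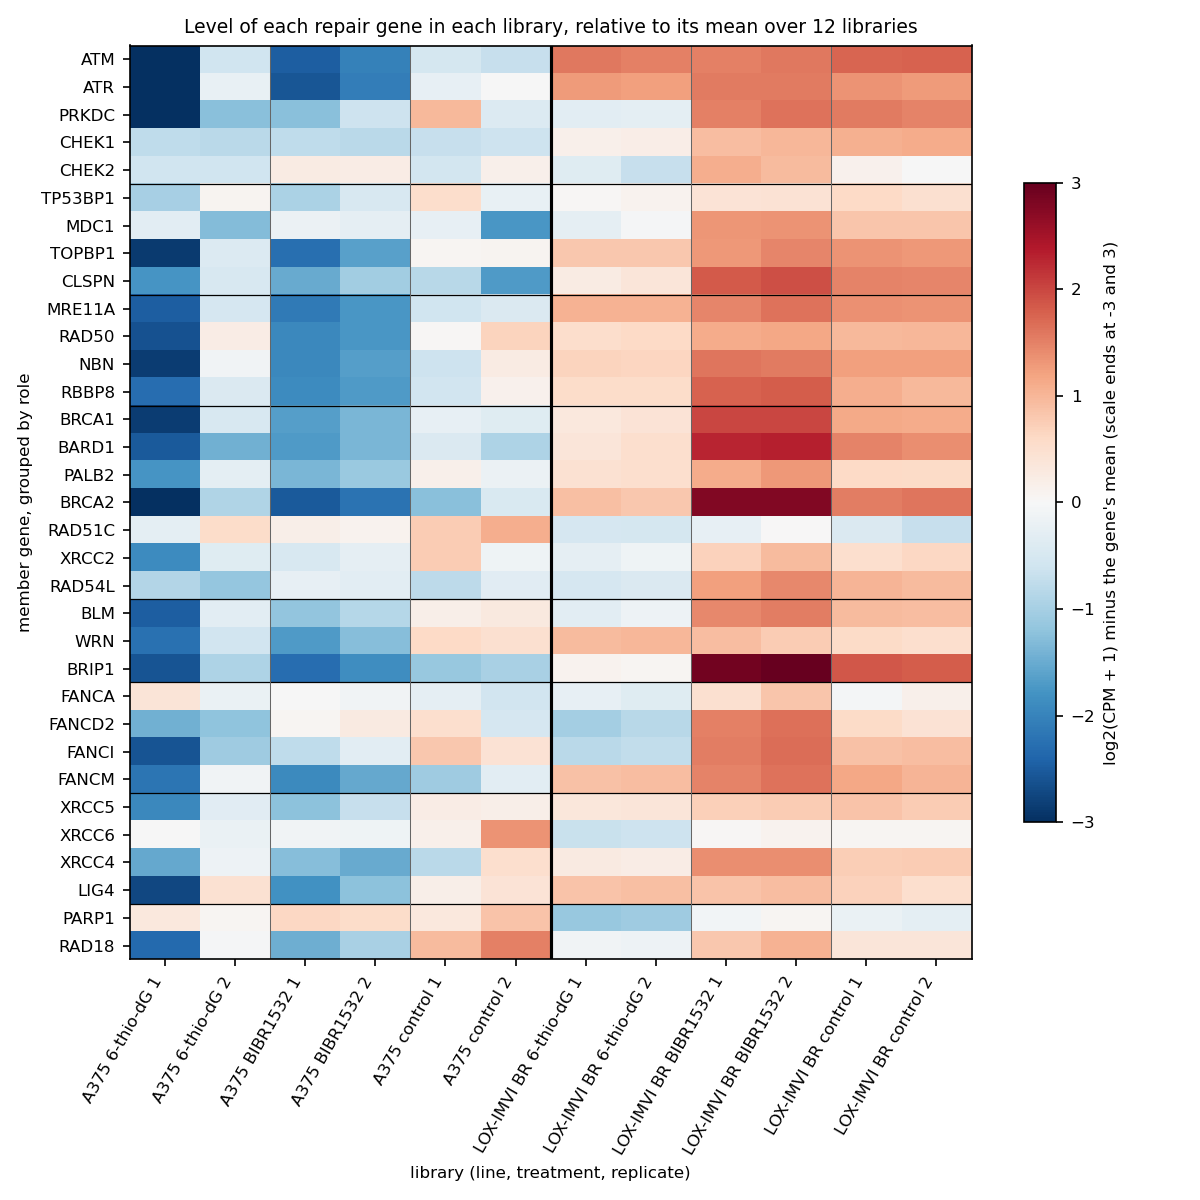
Level of each of the 33 members in each of the 12 libraries, as log2(CPM + 1) minus the gene's mean over the libraries, with red above and blue below that mean. Values past -3 or 3 take the colour at the end of the scale. The A375 6-thio-dG replicates differ in colour for most members, and their summed levels were 909 and 1318 CPM, whereas both 6-thio-dG libraries of LOX-IMVI BR look alike, at 1811 and 1855 CPM.

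Log2 fold changes in A375 followed the GC content of the transcript. The longest coding transcript of the members held 36.2% to 55.4% GC with a median of 41.9%, beside a median of 49.1% for 14362 symbol-named genes tested, and 28 of 33 members lay below that median. In A375 with BIBR1532, genes in the lowest eighth by GC (29.8% to 39.4%) had a median log2 fold change of -1.18, and the 10 members in that eighth had a median of -1.69. Genes in the highest eighth (61.3% to 80.8%), which holds no member, had a median of 0.18. With 6-thio-dG in A375 the same eighths had medians of -0.72 and 0.15. In LOX-IMVI BR the trend was weaker, with medians of -0.17 and -0.0045 in these eighths for 6-thio-dG and of 0.25 and -0.04 for BIBR1532.

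Over the 33 members, Spearman's rho between transcript GC and log2 fold change was 0.72 in A375 with BIBR1532 and 0.15 with 6-thio-dG. In LOX-IMVI BR it was -0.29 with 6-thio-dG and -0.19 with BIBR1532. These are descriptions across 33 genes that share the same libraries. Removing each library's GC trend moved the members' median log2 fold change to -0.54 in A375 with BIBR1532, where it was -1.30 before correction. The corrected medians were -0.27 in A375 with 6-thio-dG, where it was -0.89, and -0.36 in LOX-IMVI BR with 6-thio-dG, where it was -0.59. In LOX-IMVI BR with BIBR1532 the corrected median was 0.32, where it was 0.43. BRCA2, with 36.3% GC, went past the threshold without correction in A375 with BIBR1532 and missed it after correction (-0.60, edgeR adjusted p = 0.114). XRCC4, with 36.7% GC, did likewise (-0.27, adjusted p = 0.615 by edgeR). WRN and RAD18 stayed past the threshold, at -1.36 and -1.94 on the log2 scale with adjusted p-values of 0.00116 and 0.00426 (edgeR).

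**Figure D4:**
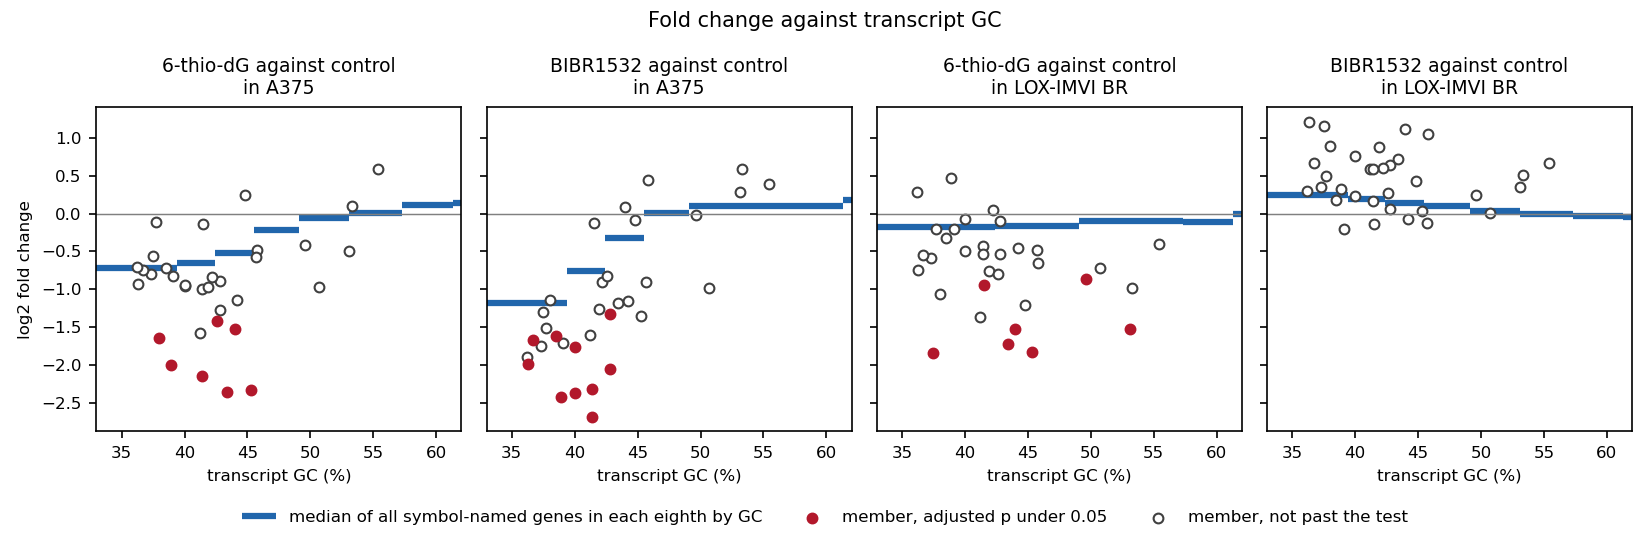
Log2 fold change against the GC content of the longest coding transcript, treatment against control in each line. Circles are the 33 members, filled where called, and blue bars are medians of all symbol-named genes in each eighth by GC, with the axis cut at 62%. In A375 with BIBR1532 the bars climb with GC and the members follow (rho 0.72), whereas in LOX-IMVI BR the bars stay within -0.18 and 0.25.

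Scaling of the libraries shifted whole comparisons. With upper-quartile factors in place of TMM the median log2 fold change of all rows became 0.43 for 6-thio-dG in A375, where it was 0.03, and the members' median became -0.54. For BIBR1532 in A375 the median of all rows was 0.18 and that of the members -1.07. For 6-thio-dG in LOX-IMVI BR these were 0.28 and -0.36. In the direct comparison of 6-thio-dG with BIBR1532 the median of all rows became 0.34 in LOX-IMVI BR and 0.29 in A375. The share of all calls that were higher then went to 80%, where TMM gave 54.6%, for 6-thio-dG in A375, to 66.4%, where TMM gave 53.8%, for BIBR1532 in A375, and to 73.5%, where TMM gave 57.8%, for 6-thio-dG in LOX-IMVI BR. In the direct comparison it went to 69.5% in LOX-IMVI BR, where TMM gave 48%, and to 60.1% in A375, where TMM gave 45.3%. For the difference between the lines in the BIBR1532 effect it went to 38.1%, where TMM gave 57.5%. No called member changed sign under either scaling.

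Whether a compound acted differently in LOX-IMVI BR and in A375 was tested as an interaction. For BIBR1532, 4 of 33 members had a log2 fold change that was higher in LOX-IMVI BR than in A375, on a background of 2.09% of all rows and 2.76% of symbol-named rows. None was lower, at an unadjusted p under 0.05 or by DESeq2 either. The 4 were RAD18 (difference 3.27 ± 0.797, edgeR adjusted p = 0.0391), BRCA2 (3.20 ± 0.830, 0.0483), WRN (2.75 ± 0.668, 0.0370) and RBBP8 (2.53 ± 0.667, 0.0496). RBBP8 had 76.1 and 78.5 CPM with BIBR1532 in LOX-IMVI BR, against 47.4 and 43.6 CPM in its controls, and RAD18 had 23.2 and 27.7 CPM, against 16.9 and 16.8 CPM. In A375 both had fallen. The count of 4 was 0 without either A375 BIBR1532 library or any of the LOX-IMVI BR libraries compared, 2 without A375 control replicate 1 and 1 without A375 control replicate 2. After GC correction 7 members were called, on a background of 8.27%, and the members' median difference was 0.65, where it was 1.90 before. Of the other pathway genes DNA2 and POLK were called higher.

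For 6-thio-dG, WRN was the 1 member called, on a background of 2.48% of rows called higher. Its difference was 2.47 ± 0.668 (edgeR adjusted p = 0.0428), with 16.6 and 17 CPM with 6-thio-dG in LOX-IMVI BR, against 12.4 and 11.9 CPM in its controls, and with 0.919 and 5.04 CPM with 6-thio-dG in A375, against 12.7 and 11.7 CPM in its controls. On the lower side 0 members were called, on a background of 3.06%, with 3 at an unadjusted p under 0.05 and 0 by DESeq2. CHEK1, at 20.9 and 21.6 CPM with 6-thio-dG against 40.3 and 41.4 CPM in controls of LOX-IMVI BR and at 10.5 and 10.2 CPM against 11.1 and 11.7 CPM in those of A375, had a difference of -0.81 ± 0.379 that did not pass (edgeR adjusted p = 0.253). After GC correction WRN was called higher and CLSPN, RAD54L and BRIP1 lower, on backgrounds of 10.6% and 10.5%. Without A375 6-thio-dG replicate 2 the count was 3 lower and 20 higher, without replicate 1 it was 2 lower and 1 higher, without either A375 control it was 1 lower, and without any LOX-IMVI BR library compared it was 0. H2AFX was the 1 other pathway gene called, and it was lower.

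The lines differed in the repair genes before any compound was given. In LOX-IMVI BR controls 12 of 33 members were higher and 2 lower than in A375 controls, on backgrounds of 21.1% of all rows (22.5% of symbol-named rows) called higher and 28.8% called lower. Low-GC genes as a class were higher in LOX-IMVI BR controls. The lowest eighth by GC had a median log2 fold change of 0.945 and the highest eighth -0.742. The 10 members in the lowest eighth had a median of 1.99. BRIP1 had 47.0 and 45.4 CPM in LOX-IMVI BR controls, against 4.97 and 5.70 CPM in A375 controls (log2 fold change 3.12 ± 0.495, edgeR adjusted p = 0.000116). CLSPN, the adaptor through which ATR activates CHEK1, had 63.3 and 62.7 CPM, against 11.9 and 6.07 CPM (2.80 ± 0.440, adjusted p = 0.000108 by edgeR). CHEK1 had 40.3 and 41.4 CPM, against 11.1 and 11.7 CPM (1.84 ± 0.274, edgeR adjusted p = 6.4e-05). ATR, which acts before them, had 82.7 and 78.3 CPM, against 26.7 and 31.5 CPM. Its libraries did not overlap, as for 36.8% of all rows on the higher side. ATR did not pass the test (1.47 ± 0.619, adjusted p = 0.0614 by edgeR), and the genes were not compared with each other.

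RAD54L had 44.4 and 42.4 CPM in LOX-IMVI BR controls, against 12 and 16.5 CPM in A375 controls, BARD1 had 26 and 24.1 CPM, against 6.13 and 4.07 CPM, and BRCA2 had 40.4 and 42.6 CPM, against 4.97 and 9.42 CPM. ATM had 207 and 211 CPM, against 42.4 and 37.7 CPM (log2 fold change 2.38 ± 0.594). None of these groups overlapped. BRCA1, MDC1, MRE11A, RBBP8 and FANCM were also called higher. The 2 lower members were RAD51C, a recombination factor, at 2.76 and 2.18 CPM against 7.70 and 9.78 CPM (-1.81 ± 0.360, edgeR adjusted p = 0.000755), and PARP1, at 200 and 186 CPM against 287 and 415 CPM (-0.86 ± 0.275, adjusted p = 0.0170 by edgeR). PRKDC, with 997 and 957 CPM against 667 and 252 CPM, and CHEK2, with 10.1 and 9.06 CPM against 5.91 and 10.4 CPM, were not called.

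Per kilobase of the longest coding transcript, a scale on which genes can be compared within a line, XRCC6 was highest in both controls, at 118 CPM per kilobase in LOX-IMVI BR and 207 in A375. PRKDC, XRCC5 and PARP1 followed in LOX-IMVI BR at 72.3, 57.9 and 48.7, and in A375 the order was PARP1, XRCC5 and PRKDC at 88.7, 37.9 and 34.0. The lowest member was RAD51C in LOX-IMVI BR, at 0.955, and FANCM in A375, at 0.543. After GC correction 12 members were called higher and 5 lower between the lines, on backgrounds of 26.3% and 37.6%, and the members' median difference was 0.41, where it was 0.87. Of the 73 other pathway genes 24 were called higher and 16 lower, and 11 of 15 proliferation markers were called higher and 0 lower, with sums of 3300 to 3380 CPM in LOX-IMVI BR controls and 1020 to 1360 CPM in A375 controls. The part of these markers in the difference was not tested.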

How the data were processed

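Gene expression was measured in 12 libraries, 2 for each of 2 cell lines and 3 treatments, described as biological replicates in the labels. The authors deposited whole-number counts per gene, not normalized. Per the submitters' processing notes, the tools included featureCounts 1.5.1, GATK, Picard and STAR, and the builds named were GRCh37 and hg19, with roles not given in the sources used here. Per the labels' protocols the kit does not keep the strand, so reads of overlapping or antisense genes, and of near-identical copies, cannot be separated. Of 75253 rows, 4 duplicated rows with date-like names were dropped (at most 0.000913% of a library's counts).

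Counts were tested in R 4.3.3 with edgeR 4.0.16 (limma 3.58.1) by quasi-likelihood. Rows with low counts were dropped by filterByExpr. TMM factors scaled the libraries, and a mean for each group was fitted to all 12 libraries, which left 6 residual degrees of freedom. P-values were adjusted over all 29114 rows tested in a comparison. GC content and length came from the longest coding transcript in GENCODE. The GC correction removed each library's lowess trend (span 0.3) through offsets. Alternatives were DESeq2 1.42.0 size factors or its test, upper-quartile factors, no filter, symbol-named rows only, the libraries of a line alone (3 residual degrees of freedom), a replicate block, GC correction and each library left out in turn. The code was tested on simulated data.

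The members, the lists of other genes and the tests were chosen with earlier results of these data known, and the 2 comparisons of one compound with the other were added after the data were seen. In each comparison the called members were ranked by adjusted p, and library values are given for some or all of the first 8. ATM, ATR, CHEK1, CHEK2, BRCA1, BRCA2, PRKDC and PARP1 are followed whatever their result. Up to 4 called genes of other pathway lists with the smallest adjusted p may be named. Of 76 other pathway genes, 74 were matched and 73 tested. Comparisons with a control share its libraries. Figures were drawn with matplotlib.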

Additional observations from a re-analysis of the deposited data

Results flagged for a closer look

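The effect of BIBR1532 differed between LOX-IMVI BR and A375 for 4 members by the test of the difference itself. The difference in log2 fold change was 3.27 for RAD18, 3.2 for BRCA2, 2.75 for WRN and 2.53 for RBBP8, each higher in LOX-IMVI BR. After GC correction the differences were 2.36, 1.54, 1.47 and 1.38, with edgeR adjusted p-values of 0.0129, 0.0157, 0.00645 and 0.0233.

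The effect of 6-thio-dG differed between LOX-IMVI BR and A375 for WRN, with a difference of 2.47 in log2 fold change that was higher in LOX-IMVI BR. After GC correction it was 2.05, with an edgeR adjusted p of 0.000849. Groups of 2 libraries are too small to look for single samples that lie far from the others.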

How the results depend on the processing

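Among 59 results for single called members under 768 alternatives, 526 kept their direction and their side of the threshold, 242 kept their direction and missed the threshold, and 0 reversed. Symbol-named rows alone lost 27 of the 59 calls, and the DESeq2 test lost 0. Counts of called members moved by over 1.5 times as follows, and the cause was not tested. Apart from the shares stated above, the share of all rows called in these fits is not given. Whether a move without that share is particular to the members cannot be told. For 6-thio-dG in A375 (7) the count was 17 with no filter, 4 with symbol-named rows only and 1 with the line alone. For BIBR1532 in A375 (10) it was 6 with DESeq2 size factors, 22 with no filter, 2 with symbol-named rows only and 0 with the line alone. In LOX-IMVI BR the line alone gave 29 for 6-thio-dG (7), and for BIBR1532 (0) the count was 1 with the DESeq2 test, 1 with no filter, 27 with the line alone, 4 with GC correction and 3 with GC correction and replicate block. For the difference between the lines in the 6-thio-dG effect (1) it was 0 with DESeq2 size factors, 2 with no filter and 0 with symbol-named rows only, and it turned to mostly lower calls with GC correction (4) and with GC correction and replicate block (5). For that in the BIBR1532 effect (4) it was 0 with DESeq2 size factors, 10 with the DESeq2 test, 20 with no filter, 0 with symbol-named rows only, 7 with GC correction and 9 with GC correction and replicate block. For 6-thio-dG against BIBR1532 it was, in A375 (1), 3 with DESeq2 size factors, 4 with the DESeq2 test, 9 with no filter, 0 with the line alone, 4 with GC correction and 4 with GC correction and replicate block, and, in LOX-IMVI BR (15), 7 with symbol-named rows only and 30 with the line alone. The difference between the controls (14) stayed within 1.5 times under each alternative.

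With single libraries left out, the lone sample of a group is assumed to vary like the others, and the share of all rows called is not given. The counts then ranged between 5 and 26 for 6-thio-dG in A375, 0 and 6 for BIBR1532 in A375, 0 and 2 for 6-thio-dG in LOX-IMVI BR, 0 and 0 for BIBR1532 in LOX-IMVI BR, 0 and 23 and 0 and 2 for the differences in the 6-thio-dG and BIBR1532 effects, 10 and 11 for the controls, and 1 and 19 in A375 and 5 and 6 in LOX-IMVI BR for 6-thio-dG against BIBR1532. In A375, differences between replicates 1 and 2 correlated at 0.305 between 6-thio-dG and BIBR1532. They correlated at -0.0884 between 6-thio-dG and the control and at -0.117 between BIBR1532 and the control. In LOX-IMVI BR the same correlations were 0.0165, -0.00639 and 0.028. Whether same-numbered libraries were handled together was not tested. The share of all rows called with a replicate block is not given. With a replicate block the counts were 8 and 14 for 6-thio-dG and BIBR1532 in A375, 5 and 0 in LOX-IMVI BR, 1 and 5 for the differences in effect, 17 for the controls, and 1 and 15 for the direct comparisons.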
